A study of Homo sapiens with 33 samples.

Results

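The TAM receptors are the receptor tyrosine kinases TYRO3, AXL and MERTK, and their ligands are the secreted proteins GAS6 and PROS1 (protein S). These 5 genes were taken by symbol from a table of 56470 gene symbols, and all 5 had counts in every library. The table came from bulk RNA-seq of SCC1, SCC6 and SCC25, 3 established head and neck squamous cell carcinoma (HNSCC) lines, treated with 100 nM cetuximab, an antibody that blocks the epidermal growth factor receptor (EGFR), or with PBS as the untreated control. Both arms received fresh medium daily, and cells were collected on days 0 to 5 under PBS and on days 1 to 5 under cetuximab. Each line therefore had 6 PBS and 5 cetuximab libraries, 33 in all. In the cetuximab arm of SCC6 no label reads day 1 and a pair of labels reads day 2; that pair is called 2a and 2b. With 1 library per line, treatment and day, the days of one arm served as its replicates, and p-values measure the spread between days as well as between cultures.

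Both ligands carry a domain whose glutamate residues are modified by a vitamin K-dependent carboxylase, and this domain binds phosphatidylserine on dying cells and on membrane particles. The ligand then bridges that membrane to a TAM receptor. GAS6 activates all TAM receptors, whereas PROS1, better known as an anticoagulant plasma protein, acts on TYRO3 and MERTK. In phagocytes the receptors clear apoptotic cells and dampen inflammation, and in carcinomas AXL is known as a receptor tied to migration, to mesenchymal states and to escape from EGFR blockade.

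Libraries held between 28508539 and 80727185 estimated counts. They were sequenced on 5 flow cells, named in the sample titles, and these were not balanced over treatment. In SCC1, only the PBS library of day 5 shared a flow cell with the cetuximab libraries. In SCC25, the cetuximab libraries of days 1 and 2 shared one with all PBS libraries, and those of days 3 to 5 were on another. In SCC6, the cetuximab libraries 2a, 2b and 3 shared one with PBS of days 2 to 5, and those of days 4 and 5 were on a flow cell without PBS. On the shared flow cell of SCC6, the number after its name in the titles was the same for all PBS libraries and different for all cetuximab libraries. The changes of the 5 genes over days 1 to 5 were therefore also estimated with the flow cell as a covariate, which in each line rests on the libraries that shared a flow cell. The changes within periods and those of the gene lists are given without that covariate unless it is named. No pair of libraries of one group agreed within sampling noise, and none of the 30 sets of 5 values for the 5 genes held an outlying library.

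The 9 squamous epithelium markers were detected in every library, KRT5 and KRT14 down to 1.72 and 1.84 CPM (counts scaled to the size of the library). Their summed level was 1894.7 to 3196.2 CPM under PBS and 6834.3 to 11828.9 CPM under cetuximab in SCC1, 1433.5 to 3835.6 and 1927.8 to 2933.5 CPM in SCC6, and 12248.2 to 19010.1 and 15136.4 to 18212.4 CPM in SCC25. The summed level of 7 fibroblast markers was higher under cetuximab in every line. It went from 50.6-72.7 to 94.2-220.1 CPM in SCC1, from 3.35-6.88 to 9.76-101.3 CPM in SCC6 and from 167.5-208.8 to 261.7-388.6 CPM in SCC25. Taken by gene over days 1 to 5, at an adjusted p under 0.05, all 5 tested fibroblast markers were higher in SCC1. In SCC6, 2 of 3 tested were higher and none lower, and in SCC25, 4 of 7 were higher and 1 lower. Of the 9 macrophage and leukocyte markers, PTPRC did not exceed 0.301 CPM and TYROBP, AIF1 and LYZ were at 0 in 32, 27 and 19 of the 33 libraries, so most of that list's sum came from CD68, at 3.91 to 234.1 CPM. The 5 endothelium markers summed to at most 18.5 CPM in any library. The part of these marker levels in the TAM results was not tested.

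On GRCh37, the build of the submitters' processing notes, AXL (ENSG00000167601) lies on the forward strand of chr19:41725128-41767671 and its canonical transcript has 20 exons and 4.72 kb. TYRO3 (ENSG00000092445) lies on chr15:41849873-41875787, forward, with 19 exons and 8.03 kb. MERTK (ENSG00000153208) lies on chr2:112656184-112787138, forward, with 19 exons and 3.83 kb. GAS6 (ENSG00000183087) lies on the reverse strand of chr13:114523522-114567049, with 15 exons and 2.51 kb. PROS1 (ENSG00000184500) lies on the reverse strand of chr3:93591895-93698847, with 15 exons and 3.37 kb. Positions are those of the GENCODE annotation lifted to GRCh37. TYRO3 and PROS1 have near-identical pseudogenes, TYRO3P on chr15:76551327-76554031 and PROS2P on chr3:90251466-90306565, and GAS6 overlaps the antisense gene GAS6-AS1 on chr13:114518603-114548717. Over the 33 libraries TYRO3P had 0 to 9 estimated counts and PROS2P 0 to 1, against at least 619 for TYRO3 and 60 for PROS1. GAS6-AS1 had 5 to 81 estimated counts and GAS6-DT, a divergent gene just outside GAS6 that the table lists under its older symbol GAS6-AS2, 16 to 212, against at least 603 for GAS6. The library kit keeps strand, but the strand setting of the counting is not given in the sources used here.

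The 250 bases upstream of the canonical start are shown for AXL, whose change differed between the lines, and for GAS6, the more abundant ligand in SCC6 and SCC25 and the ligand of every TAM receptor. The AXL window is chr19:41724878-41725127 on the forward strand and the GAS6 window chr13:114567050-114567299 on the reverse strand, both GRCh37 and written 5′ to 3′ in the direction of transcription. Capitals mark every match on either strand to a GC box (GGGCGG), to the AP-1 site TGANTCA, to the TFAP2 site GCCNNNGGC, to the TEAD site GGAATG or to the TATA box TATAAA.
AXL: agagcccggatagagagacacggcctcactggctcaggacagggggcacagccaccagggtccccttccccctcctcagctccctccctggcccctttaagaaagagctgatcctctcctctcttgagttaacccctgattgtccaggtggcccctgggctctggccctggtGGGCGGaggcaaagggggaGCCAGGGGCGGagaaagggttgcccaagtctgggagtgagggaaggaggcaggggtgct
GAS6: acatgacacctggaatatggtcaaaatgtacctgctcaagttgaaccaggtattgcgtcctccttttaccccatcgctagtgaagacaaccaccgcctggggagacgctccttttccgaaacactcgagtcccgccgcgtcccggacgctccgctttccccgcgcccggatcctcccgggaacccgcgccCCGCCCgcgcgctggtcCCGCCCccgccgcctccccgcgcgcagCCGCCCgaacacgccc
The AXL window held 2 GC boxes, 78 and 54 bases upstream of the start, and 1 TFAP2 match 59 bases upstream that overlaps the second GC box. The GAS6 window held 3 GC boxes, 60, 43 and 16 bases upstream, and no TFAP2 match, and GAS6-DT (chr13:114567085-114569807) starts inside it. A GC box occurred in 59.1% of 19874 promoter windows of that length, the TFAP2 letters in 25.6%, the AP-1 letters in 4.69%, the TEAD letters in 9.83% and the TATA letters in 9.26%. The windows of TYRO3, MERTK and PROS1 also held a GC box and a TFAP2 match, TYRO3 was the only one of the 5 with an AP-1 match, 220 bases upstream, and none of the 5 held a TEAD or TATA match. The GC content was 64.4% for AXL and 66.8% for GAS6, against a median of 63.2% over all windows.

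Levels under PBS differed in kind between the lines. On a scale of CPM divided by transcript length in kb, AXL was the highest TAM receptor in all 3 lines, at 51.7 ± 4.85 in SCC1 cells, 45.1 ± 5.89 in SCC6 cells and 41.0 ± 6.47 in SCC25 cells (mean ± SD, n = 5, days 1 to 5). TYRO3, per kb, was at 2.09 ± 0.119, 3.96 ± 0.972 and 3.42 ± 0.147 in the same order, and MERTK at 0.932 ± 0.142, 0.0904 ± 0.0513 and 0.695 ± 0.0859. AXL thus made up 94.5% ± 0.277 of the summed receptor level per kb in SCC1, 91.8% ± 0.925 in SCC6 and 90.8% ± 1.21 in SCC25. Of the ligands, GAS6 was at 10.1 ± 1.96 CPM per kb in SCC1, 23.9 ± 15.0 in SCC6 and 35.7 ± 3.42 in SCC25, and PROS1 at 8.99 ± 0.564, 0.981 ± 0.234 and 1.28 ± 0.0975. SCC1 therefore carried both ligands at like levels, with GAS6 at 52.4% ± 5.81 of their sum, whereas GAS6 made up 94.4% ± 4.69 in SCC6 and 96.5% ± 0.492 in SCC25.

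Compared between the lines over PBS of days 0 to 5 by edgeR's quasi-likelihood test, PROS1 and MERTK showed the widest gaps. PROS1 was higher in SCC1 than in SCC25 by 2.87 ± 0.16 on the log2 scale (fitted difference ± SE, adjusted p = 1.9e-12) and lower in SCC6 than in SCC1 (-3.36 ± 0.16, adjusted p = 2.8e-13). MERTK was lower in SCC6 than in SCC1 (-3.47 ± 0.33, adjusted p = 7.6e-09) and than in SCC25 (-3.13 ± 0.33, adjusted p = 3.3e-08), whereas SCC1 and SCC25 were not separated (0.34 ± 0.26, adjusted p = 0.25). GAS6 was lowest in SCC1, below SCC25 by -1.79 ± 0.28 (adjusted p = 1.7e-05) and below SCC6 by 1.43 ± 0.28 (adjusted p = 0.00018), and SCC6 and SCC25 were not separated (-0.36 ± 0.28, adjusted p = 0.25). TYRO3 was also lowest in SCC1, by -0.67 ± 0.11 against SCC25 (adjusted p = 2.8e-05) and by 1.02 ± 0.11 against SCC6 (adjusted p = 1.1e-07). Its difference between SCC6 and SCC25 (0.35 ± 0.11, adjusted p = 0.0088) was lost when libraries were scaled by total counts (0.23, adjusted p = 0.079) or day 0 was left out (0.24, adjusted p = 0.068). PROS1 was lower in SCC6 than in SCC25 (-0.48 ± 0.16, adjusted p = 0.01).

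AXL differed least between the lines under PBS. SCC1 and SCC6 were not separated (-0.05 ± 0.11, adjusted p = 0.7), although with scaling by total counts SCC6 was lower (-0.25, adjusted p = 0.045). SCC6 and SCC25 were not separated either (0.24 ± 0.11, adjusted p = 0.065), but this difference passed without SCC25 PBS of day 2 or SCC6 PBS of day 2, 4 or 5 (0.27 to 0.28, adjusted p = 0.038 to 0.047). SCC1 lay above SCC25 (0.29 ± 0.11, adjusted p = 0.028), a call lost without SCC1 PBS of day 2 or 3 or SCC25 PBS of day 4 or 5 (0.22 to 0.27, adjusted p = 0.056 to 0.081) or with no filter on low counts (0.28, adjusted p = 0.067). Differences of this kind were common, since 68.9% of genes tested differed between SCC1 and SCC25, 69% between SCC6 and SCC1 and 72% between SCC6 and SCC25. All PBS libraries of SCC25 were on a flow cell that held no other line, so line and flow cell cannot be told apart there. Between SCC1 and SCC6, only SCC1 PBS of day 5 and SCC6 PBS of days 0 and 1 shared a flow cell. The levels under PBS were compared without the flow cell as a covariate, so line and flow cell are largely mixed in that pair too.

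To see how EGFR blockade acts on the receptors, each line was compared with its own PBS controls over days 1 to 5. AXL fell in SCC1 and SCC25 and rose in SCC6. MERTK fell in SCC25 and, less securely, in SCC1. TYRO3 passed only in SCC1, with a small rise. Of the ligands, PROS1 rose in SCC1 and SCC25, and GAS6 passed in SCC1 with a call that depended on single libraries. All 5 genes passed in SCC1, where 44.5% of genes tested did, 1 passed in SCC6, where 30.1% did, and 3 passed in SCC25, where 18.2% did. By direction, 22.5% of genes were called higher and 22% lower in SCC1. In SCC6 these shares were 15.5% and 14.5%, and for SCC25 they were 8.72% and 9.47%. Non-overlap of the arms, given below by gene, is a description, since the share of all genes showing it was not counted.

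**Figure D1:**
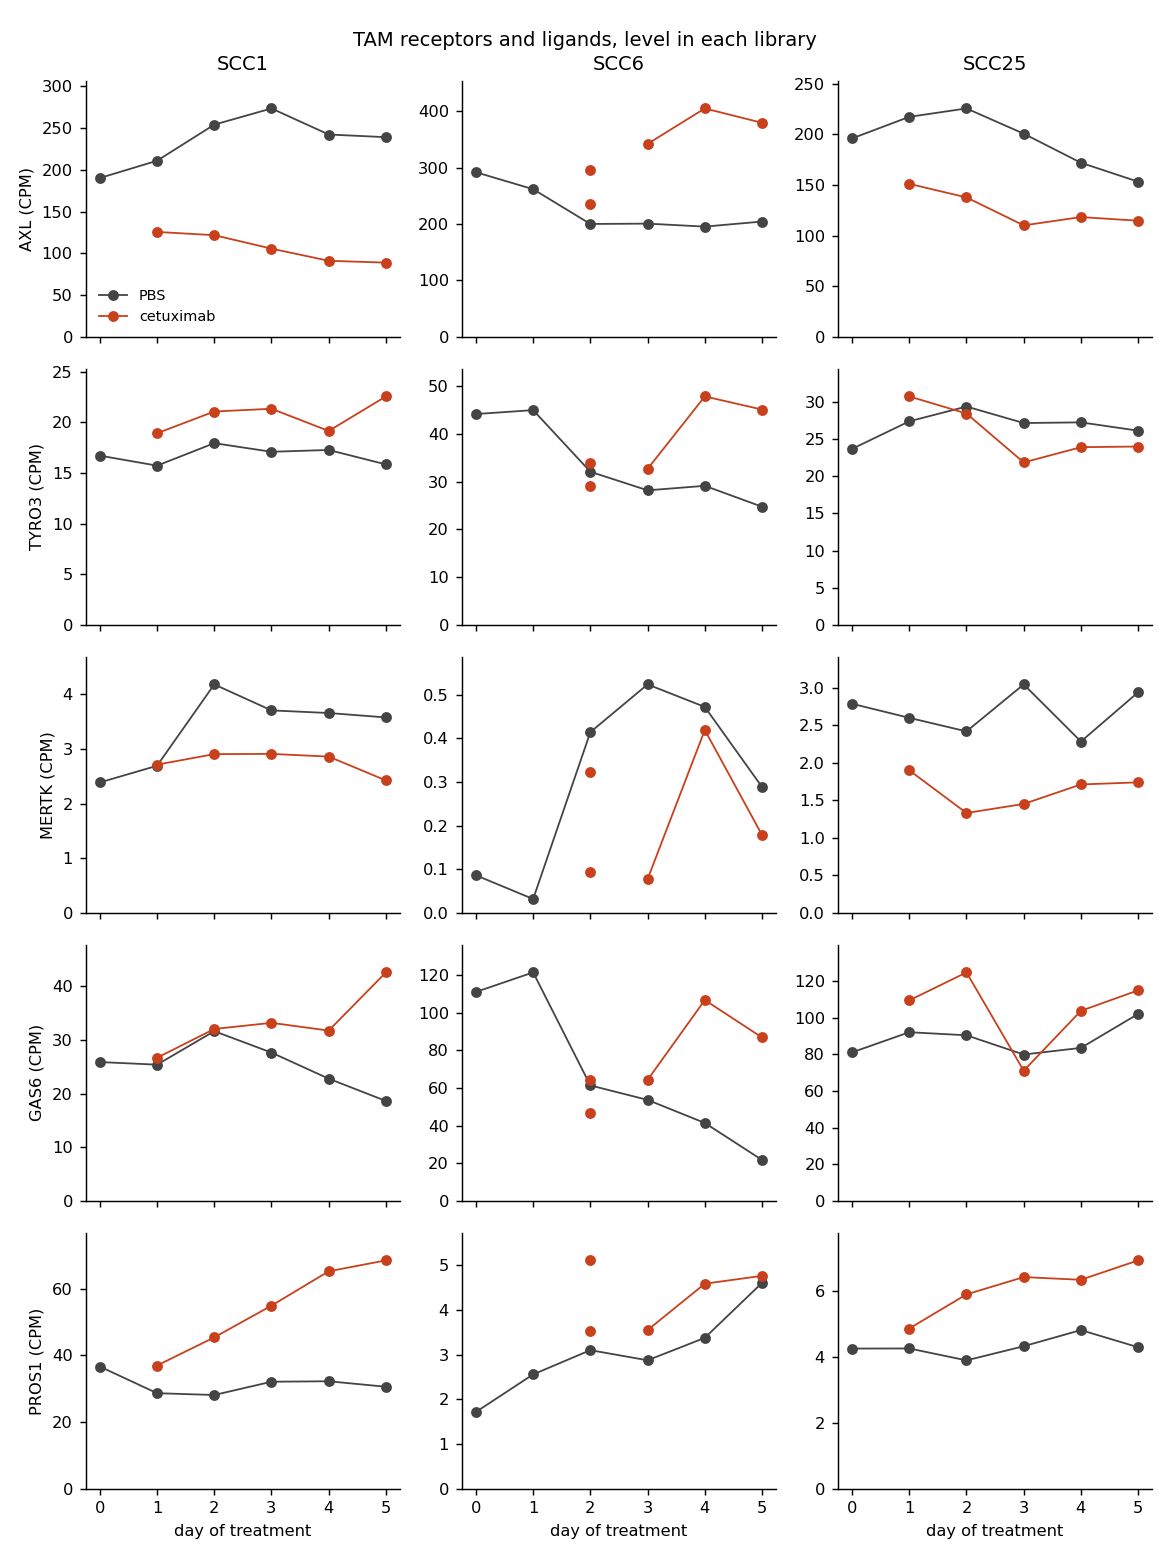
Level of each gene in CPM (rows) in each library by day of treatment in SCC1, SCC6 and SCC25 (columns), with PBS in grey and cetuximab in orange. Each panel has its own vertical axis from 0, 1 point is 1 library, and the SCC6 cetuximab libraries 2a and 2b are both drawn at day 2 without a connecting line. AXL lies below PBS on every day in SCC1 and SCC25 and above PBS on days 3 to 5 in SCC6.

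In SCC1, AXL stood at 190, 211, 254, 273, 242 and 239 CPM under PBS on days 0 to 5 and at 126, 122, 106, 91.1 and 88.8 CPM under cetuximab on days 1 to 5. Every cetuximab library lay below every PBS library, and the gap was already open on day 1. In bulk RNA, fewer cells of a kind and less RNA per cell cannot be told apart. Taken day by day, the log2 ratio of cetuximab to PBS was -0.75, -1.06, -1.37, -1.41 and -1.43. Over the 5 days AXL went from 243.9 ± 22.9 to 106.6 ± 16.9 CPM (SD, n = 5), a log2 fold change of -1.18 ± 0.10 (SE, edgeR adjusted p = 4.2e-06). With the flow cell as a covariate, where PBS of day 5 alone carries the comparison, it was -1.15 ± 0.17 (adjusted p = 0.0015).

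In SCC25, AXL was at 196, 217, 225, 201, 172 and 153 CPM under PBS on days 0 to 5 and at 151, 138, 110, 118 and 115 CPM under cetuximab on days 1 to 5. The groups again did not overlap, but the highest cetuximab library, that of day 1, was close to the lowest PBS library, that of day 5. PBS itself was lower on days 4 and 5 than on days 1 to 3, by a log2 difference that did not pass (-0.40 ± 0.12, adjusted p = 0.32). AXL went from 193.6 ± 30.5 to 126.3 ± 17.4 CPM (SD, n = 5), a log2 fold change of -0.62 ± 0.12 (SE, edgeR adjusted p = 0.0053). Within the flow cell that holds both arms, thus with cetuximab of days 1 and 2 only against PBS of days 1 to 5, it was -0.41 ± 0.13 and did not pass (adjusted p = 0.079). The log2 ratio to PBS of the same day was -0.52, -0.71, -0.87, -0.54 and -0.42 on days 1 to 5.

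SCC6 went the other way. AXL was at 292, 262, 200, 201, 196 and 205 CPM under PBS on days 0 to 5 and at 296, 236, 342, 405 and 380 CPM in the cetuximab libraries 2a, 2b, 3, 4 and 5. Of these, 4 lay above every PBS library of days 1 to 5, and 2b lay below PBS of day 1. The log2 ratio to PBS of the same day was 0.77, 1.05 and 0.89 on days 3 to 5. AXL went from 212.7 ± 27.8 to 331.8 ± 67.8 CPM (SD, n = 5), a log2 fold change of 0.59 ± 0.13 (SE, edgeR adjusted p = 0.0066). Within the flow cell that holds both arms, thus with cetuximab libraries 2a, 2b and 3 against PBS of days 2 to 5, it was 0.52 ± 0.10 (adjusted p = 0.0025). There the number after the flow cell name in the titles differed between the arms, so it cannot be told apart from treatment.

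The change of AXL differed between the lines when the difference itself was tested. The edgeR test of the interaction of line and treatment gave an adjusted p of 6.1e-08 for AXL, where 26% of genes tested passed. By pairs of lines, the change in SCC6 exceeded that in SCC1 by 1.79 ± 0.18 on the log2 scale (adjusted p = 2.6e-08), where 19.2% of genes passed, and that in SCC25 by 1.22 ± 0.18 (adjusted p = 1.8e-05), where 17.5% passed. With the flow cell as a covariate these differences were 1.69 ± 0.22 (adjusted p = 1.1e-05) and 0.96 ± 0.20 (adjusted p = 0.0028). AXL fell more in SCC1 than in SCC25, by 0.57 ± 0.18 (adjusted p = 0.044), where 8.5% of genes passed. That last call was lost with the flow cell as a covariate (0.73, adjusted p = 0.088), with scaling by total counts (0.55, adjusted p = 0.054), with no filter on low counts (0.58, adjusted p = 0.1), with the day as a block and 2b as day 1 (0.58, adjusted p = 0.059), and without any 1 of 18 of the 30 libraries (0.50 to 0.64 over all 30).

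None of the other 4 genes passed the interaction test, with adjusted p of 0.16 for PROS1, 0.18 for TYRO3, 0.73 for MERTK and 0.93 for GAS6. For PROS1 the change in SCC6 was below that in SCC1 by -0.49 ± 0.21 and for TYRO3 the change in SCC25 was below that in SCC1 by -0.39 ± 0.17, both without passing (adjusted p = 0.098 and 0.19). Without a single library the interaction passed for TYRO3 (SCC6 PBS of day 1, adjusted p = 0.034) and for PROS1 (SCC1 cetuximab of day 1, adjusted p = 0.043).

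**Figure D2:**
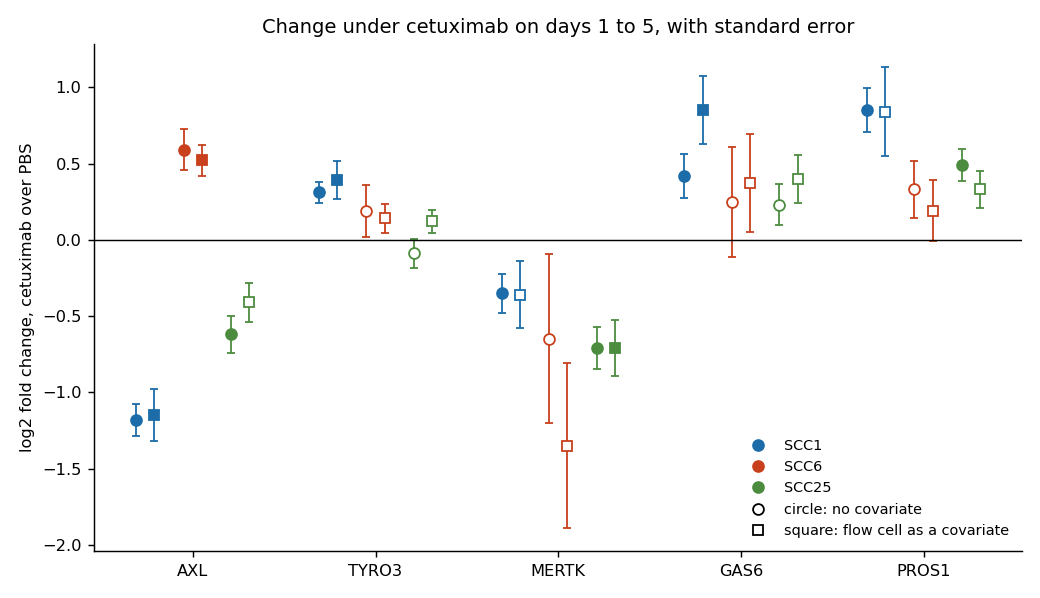
Log2 fold change of cetuximab over PBS on days 1 to 5 for each gene and line (colours), with its standard error. Circles have no covariate, squares have the flow cell as a covariate, and filled symbols have an adjusted p under 0.05. AXL is the gene whose symbols lie on both sides of 0 with all circles filled, at -1.18 in SCC1, -0.62 in SCC25 and 0.59 in SCC6.

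TYRO3, the TAM receptor best known from the nervous system, passed the test over the 5 days in SCC1, where it was at 15.7, 17.9, 17.1, 17.3 and 15.8 CPM under PBS on days 1 to 5 and at 18.9, 21.1, 21.4, 19.2 and 22.6 CPM under cetuximab. Every cetuximab library lay above every PBS library, and TYRO3 rose from 16.8 ± 0.959 to 20.6 ± 1.54 CPM (SD, n = 5; log2 fold change 0.31 ± 0.07, edgeR adjusted p = 0.0026). The call held with the flow cell as a covariate (0.39 ± 0.12, adjusted p = 0.042).

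In SCC6, TYRO3 was at 45.0, 32.1, 28.2, 29.1 and 24.7 CPM under PBS on days 1 to 5 and at 33.9, 29.1, 32.7, 47.9 and 45.1 CPM in the cetuximab libraries 2a, 2b, 3, 4 and 5. The groups overlapped, since PBS was highest on day 1 and cetuximab on days 4 and 5, and the change did not pass (0.19 ± 0.17, adjusted p = 0.43). In SCC25 it was at 27.4, 29.4, 27.2, 27.2 and 26.1 CPM under PBS and at 30.7, 28.4, 21.9, 23.9 and 24.0 CPM under cetuximab. The estimate there was -0.09 ± 0.09 (adjusted p = 0.54) and changed sign with the flow cell as a covariate (0.12 ± 0.08, adjusted p = 0.4), neither of which passed.

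MERTK, the receptor through which macrophages engulf apoptotic cells, was scarce. In SCC25 it was at 2.60, 2.42, 3.05, 2.29 and 2.94 CPM under PBS on days 1 to 5 and at 1.90, 1.33, 1.45, 1.71 and 1.74 CPM under cetuximab. No cetuximab library reached the lowest PBS library, and MERTK fell from 2.66 ± 0.329 to 1.63 ± 0.231 CPM (SD, n = 5; log2 fold change -0.71 ± 0.14, edgeR adjusted p = 0.0041). Behind these levels stood 99 to 145 counts under PBS and 56 to 89 under cetuximab, and within the shared flow cell the change was again -0.71 ± 0.19 (adjusted p = 0.04).

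In SCC1, MERTK was at 2.69, 4.18, 3.71, 3.66 and 3.58 CPM under PBS and at 2.71, 2.91, 2.91, 2.86 and 2.42 CPM under cetuximab. Cetuximab was lower from day 2 on, while on day 1 the values of both arms were nearly the same. The log2 fold change was -0.35 ± 0.13 (adjusted p = 0.038), with 101 to 187 counts per library. This call was not secure: it was kept only without PBS of day 1 (-0.44, adjusted p = 0.0064) or PBS of day 5 (-0.36, adjusted p = 0.049) and lost without any other single library (-0.38 to -0.30, adjusted p = 0.051 to 0.094), and the estimate with the flow cell as covariate was -0.36 ± 0.22 (adjusted p = 0.29). In SCC6, MERTK had 1 to 18 counts under PBS of days 1 to 5 and 3 to 30 under cetuximab, 0.346 ± 0.196 and 0.218 ± 0.149 CPM (SD, n = 5). A change was not detectable at this depth (-0.65 ± 0.55, adjusted p = 0.41, and -1.35 ± 0.54, adjusted p = 0.087, with the flow cell as a covariate).

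PROS1 showed the clearest rise among the ligands. In SCC1 it was at 36.6, 28.6, 28.1, 32.1, 32.2 and 30.6 CPM under PBS on days 0 to 5 and at 36.9, 45.4, 54.9, 65.2 and 68.4 CPM under cetuximab on days 1 to 5. Every cetuximab library lay above every PBS library, and the level was higher on each later day. PROS1 went from 30.3 ± 1.90 to 54.2 ± 13.2 CPM (SD, n = 5), a log2 fold change of 0.85 ± 0.15 (SE, edgeR adjusted p = 0.0006). Against PBS of day 5 alone, the library on the same flow cell, the size was like (0.84 ± 0.29) but the call was lost (adjusted p = 0.076).

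In SCC25, PROS1 was at 4.27, 3.90, 4.33, 4.83 and 4.30 CPM under PBS on days 1 to 5 and at 4.87, 5.91, 6.44, 6.35 and 6.94 CPM under cetuximab. All cetuximab libraries lay above all PBS libraries, that of day 1 by little. The log2 fold change was 0.49 ± 0.11 (edgeR adjusted p = 0.0082), and within the shared flow cell, with cetuximab of days 1 and 2, it was 0.33 ± 0.12 and did not pass (adjusted p = 0.13). In SCC6 the gene was at 2.56, 3.10, 2.88, 3.38 and 4.61 CPM under PBS and at 3.53, 5.11, 3.55, 4.59 and 4.77 CPM in 2a, 2b, 3, 4 and 5, with overlap and no call (0.33 ± 0.19, adjusted p = 0.21, and 0.19 ± 0.20, adjusted p = 0.53, with the flow cell as a covariate).

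GAS6 varied more with the day. In SCC1 it was at 25.4, 31.6, 27.6, 22.8 and 18.6 CPM under PBS on days 1 to 5 and at 26.7, 32.1, 33.2, 31.8 and 42.6 CPM under cetuximab. The arms were alike on days 1 and 2 and apart on day 5, where the log2 ratio was 1.19. GAS6 went from 25.2 ± 4.92 to 33.3 ± 5.79 CPM (SD, n = 5; log2 fold change 0.42 ± 0.14, edgeR adjusted p = 0.033). The call was lost with the day as a block (0.40, adjusted p = 0.1) and without PBS of day 1, 4 or 5 or cetuximab of day 2, 3, 4 or 5 (0.30 to 0.43, adjusted p = 0.052 to 0.082). With the flow cell as a covariate the estimate was 0.85 ± 0.22. PBS of day 5 alone carries that comparison, and it had the lowest GAS6 level of the PBS libraries, so this fit cannot secure the call. The antisense gene GAS6-AS1 was called higher in SCC1, from 0.381 ± 0.264 to 0.925 ± 0.510 CPM (SD, n = 5; 1.33 ± 0.44, edgeR adjusted p = 0.027), while GAS6-DT was at 0.655 ± 0.289 and 0.665 ± 0.205 CPM (adjusted p = 0.92). For GAS6-AS1, cetuximab of day 1 stood at 1.80 CPM, with 81 counts, and the later cetuximab days at 0.498 to 0.888 CPM. PBS of day 1 was at 0.839 CPM, so the arms overlapped at low counts.

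In SCC6, GAS6 under PBS was at 111.0, 121.4, 61.3, 53.6, 41.4 and 21.7 CPM on days 0 to 5, so the controls themselves were lower on each day after day 1. Between PBS of days 4 and 5 and of days 1 to 3 the log2 difference was -1.34 ± 0.38, which edgeR did not call (adjusted p = 0.17) and DESeq2 did (adjusted p = 0.0055). Under cetuximab it was at 64.2, 46.9, 64.3, 106.7 and 86.8 CPM in 2a, 2b, 3, 4 and 5. Cetuximab was thus below PBS of day 1, near PBS of days 2 and 3, and above PBS of the same day on days 4 and 5, and the 5-day change did not pass (0.25 ± 0.36, adjusted p = 0.64). In SCC25, GAS6 was at 92.1, 90.4, 79.9, 83.6 and 102.1 CPM under PBS and at 109.5, 124.8, 71.1, 103.8 and 115.0 CPM under cetuximab. Here 4 cetuximab libraries lay above all PBS libraries and that of day 3 below them, and the change did not pass (0.23 ± 0.13, adjusted p = 0.26, and 0.40 ± 0.16, adjusted p = 0.17, with the flow cell as a covariate), except without cetuximab of day 3 (0.35, adjusted p = 0.0067).

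The 5 days were then split into days 1 to 3 and days 4 and 5. In SCC1 on days 1 to 3, where 29.5% of genes passed, AXL (-1.06 ± 0.09, adjusted p = 2.3e-05), PROS1 (0.63 ± 0.12, adjusted p = 0.002) and TYRO3 (0.28 ± 0.10, adjusted p = 0.049) passed. On days 4 and 5, where 29.8% passed, AXL (-1.42 ± 0.12, adjusted p = 1.3e-05), PROS1 (1.09 ± 0.14, adjusted p = 0.00022) and GAS6 (0.84 ± 0.17, adjusted p = 0.0026) passed. TYRO3 was then at 0.33 ± 0.12 (adjusted p = 0.052), and 4 of the 5 genes passed with DESeq2 and with scaling by total counts. The share of all genes passing in those 2 fits is not given here. The early TYRO3 call was lost with no filter on low counts (0.28, adjusted p = 0.064), with pseudogene counts added (0.27, adjusted p = 0.052), with the flow cell as a covariate (0.42, adjusted p = 0.33), and without PBS of day 1, 2 or 3 or cetuximab of day 2 or 3 (0.24 to 0.33, adjusted p = 0.061 to 0.13). The early PROS1 call was lost with the flow cell as a covariate (0.73, adjusted p = 0.19).

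In SCC6, none of the 5 genes passed on days 1 to 3, where 20.3% of genes did, and 3 passed on days 4 and 5, where 37.5% did. AXL was 0.36 ± 0.14 (adjusted p = 0.1) in the early period and rose by 0.89 ± 0.18 (adjusted p = 0.0031) in the late one. GAS6 went from an early estimate of -0.47 ± 0.32 (adjusted p = 0.34) to a late rise of 1.53 ± 0.40 (adjusted p = 0.015), and TYRO3 from -0.18 ± 0.16 (adjusted p = 0.48) to 0.70 ± 0.20 (adjusted p = 0.017). The late GAS6 and TYRO3 calls were lost without PBS of day 5 (1.15, adjusted p = 0.11, and 0.60, adjusted p = 0.12) or without cetuximab of day 4 (1.38, adjusted p = 0.062, and 0.66, adjusted p = 0.081). The early AXL change did pass with no filter on low counts (0.37, adjusted p = 0.014), with the flow cell as a covariate (0.51, adjusted p = 0.011), without PBS of day 1 (0.50, adjusted p = 0.011) and without cetuximab library 2b (0.49, adjusted p = 0.028). The late cetuximab libraries of SCC6 had a flow cell of their own, so late treatment and flow cell cannot be told apart.

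In SCC25, AXL (-0.68 ± 0.11, adjusted p = 0.0045) and MERTK (-0.77 ± 0.18, adjusted p = 0.027) passed on days 1 to 3, where 7.85% of genes did. The MERTK call was lost without PBS of day 1, 2 or 3 or cetuximab of day 2 (-0.86 to -0.67, adjusted p = 0.061 to 0.093). On days 4 and 5, where 2.77% of genes passed, none of the 5 did, with AXL at -0.48 ± 0.13 (adjusted p = 0.088), PROS1 at 0.55 ± 0.16 (adjusted p = 0.1) and MERTK at -0.60 ± 0.22 (adjusted p = 0.18). AXL passed there with the day as a block (-0.48, adjusted p = 0.029), with DESeq2 (-0.47, adjusted p = 0.035), with no filter on low counts (-0.48, adjusted p = 0.049) and without cetuximab of day 3 (-0.48, adjusted p = 0.00057), and was near 0 with the flow cell as a covariate (-0.07 ± 0.12, adjusted p = 0.77), a fit in which cetuximab of day 3 sets the level of the second flow cell.

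The change did not differ between the periods past the threshold for any of the 5 genes. The test of that difference called 0% of genes by edgeR in each line, with 1394 genes at an unadjusted p under 0.05 in SCC1, 5596 in SCC6 and 588 in SCC25, and DESeq2 called 31, 2838 and 3 genes. The widest estimates were those of GAS6 in SCC6 (2.00, adjusted p = 0.096) and TYRO3 in SCC6 (0.88, adjusted p = 0.096). Both passed with DESeq2 (1.97, adjusted p = 0.0036, and 0.85, adjusted p = 0.022), with no filter on low counts (2.03, adjusted p = 5e-19, and 0.90, adjusted p = 0.0024), without PBS of day 1 (1.54, adjusted p = 0.047, and 0.65, adjusted p = 0.032) and without PBS of day 3 (2.21 and 1.01, both with adjusted p = 0.049). AXL in SCC6 (0.53, adjusted p = 0.15) passed with no filter on low counts (0.55, adjusted p = 0.037). Within PBS alone, days 4 and 5 against days 1 to 3 gave 0.00509% of genes in SCC1, 0.146% in SCC6 and 0% in SCC25, where edgeR had 1749 genes at an unadjusted p under 0.05 and DESeq2 called 241. Within cetuximab alone the shares were 0% in SCC1 (1956 genes at an unadjusted p under 0.05, 178 by DESeq2), 9.57% in SCC6 and 0% in SCC25 (1410 and 100), and none of the 5 genes passed with edgeR. These counts moved with single libraries. Within PBS they ranged from 0 to 49 genes in SCC1 (49 without cetuximab of day 3), from 0 to 155 in SCC6 (155 without PBS of day 3) and from 0 to 304 in SCC25 (304, with 1 of the 5 genes, without cetuximab of day 3). Within cetuximab they ranged from 0 to 57 in SCC1 (57, with 1 of the 5, without cetuximab of day 3), from 0 without cetuximab library 2a to 5919 without PBS of day 1 in SCC6 (2 of the 5 genes then), and from 0 to 1358 in SCC25 (1358, with 2 of the 5, without cetuximab of day 3). AXL in cetuximab-treated SCC1 (-0.39 ± 0.10, adjusted p = 0.26) and PROS1 in the same libraries (0.54 ± 0.13, adjusted p = 0.21) had the smallest unadjusted p there, 0.00274 and 0.00119.

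Over the 3 lines in one fit, with the line as a term, PROS1 rose (0.58 ± 0.09, adjusted p = 1.1e-05) and MERTK fell (-0.55 ± 0.17, adjusted p = 0.0092), where 42.6% of genes passed. PROS1 was higher under cetuximab on average in each line, and MERTK lower. The average for AXL, -0.40 ± 0.16 (adjusted p = 0.042), describes no line, since it joins falls in SCC1 and SCC25 with a rise in SCC6. It was lost with the day as a block (-0.42, adjusted p = 0.11 and 0.12 with 2a or 2b as day 1), with the flow cell as a covariate (-0.21, adjusted p = 0.38) and without any 1 of 18 of the 30 libraries. GAS6 (0.30 ± 0.15, adjusted p = 0.11) and TYRO3 (0.14 ± 0.08, adjusted p = 0.13) did not pass, but did with the flow cell as a covariate (0.47, adjusted p = 0.023, and 0.18, adjusted p = 0.018) and without SCC6 PBS of day 1 (0.43, adjusted p = 0.007, and 0.18, adjusted p = 0.036).

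These changes altered the balance of receptors and ligands, given here as a description on the scale of CPM per kb. The summed receptor level went from 54.7 ± 5.04 to 25.9 ± 3.55 in SCC1, from 49.1 ± 6.74 to 75.1 ± 15.3 in SCC6 and from 45.2 ± 6.57 to 30.4 ± 4.16 in SCC25 (SD, n = 5). AXL remained the main receptor transcript under cetuximab, with 87.1% ± 2.04 of the sum in SCC1, 93.7% ± 0.598 in SCC6 and 88.0% ± 0.270 in SCC25. TYRO3 went from 3.83% ± 0.252 to 10.1% ± 1.76 of the receptor sum in SCC1, from 7.99% ± 0.969 to 6.27% ± 0.563 in SCC6 and from 7.68% ± 0.93 to 10.5% ± 0.207 in SCC25. In SCC1 TYRO3 itself went from 2.09 to 2.57 CPM per kb, while AXL went from 51.7 to 22.6. The summed ligand level went from 19.0 ± 1.78 to 29.3 ± 5.91 in SCC1, from 24.9 ± 14.8 to 30.7 ± 9.29 in SCC6 and from 37.0 ± 3.39 to 43.6 ± 8.08 in SCC25. In SCC1 and SCC25 the ligand sum was thus below the receptor sum on average under PBS and above it on average under cetuximab, while in SCC6 it was below in both arms. Cetuximab of days 1 and 2 in SCC1 still had the lower ligand sum, and PBS of day 5 in SCC25 already had the higher. In SCC1, GAS6 was at 45.6% ± 3.87 of the ligands under cetuximab.

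The genes whose level followed each member most closely were taken from the 30 libraries of days 1 to 5, after the mean of each line was removed. The libraries share treatment, day and flow cell, so these correlations of log2 CPM are descriptions. AXL was followed by ANXA6 (annexin A6; Pearson r = 0.951), FMNL3 (a formin; 0.93), VIM (vimentin, the mesenchymal intermediate filament; 0.926), FLNC (filamin C; 0.926) and GDPD5 (0.925), among 10436 genes. VIM had an r with AXL of 0.991 in SCC1, 0.934 in SCC6 and 0.945 in SCC25. TYRO3 was followed by LZTS2 (0.944), PHLDA3 (0.935) and USP5 (0.923), and GAS6 by SDC1 (syndecan 1; 0.935), PHLDA3 (0.916) and POMT1 (0.902). TYRO3 and GAS6 thus shared PHLDA3, and with each other had an r of 0.835, by line 0.848 in SCC1, 0.92 in SCC6 and 0.322 in SCC25. PROS1 was followed by ASAH1 (acid ceramidase; 0.915), ITFG1 (0.903) and MSI2 (0.903). MERTK had the weakest likeness, with CCDC68 (0.779), MORC4 (0.717) and ZDHHC2 (0.69), and CCDC68 had an r of 0.006 with it within SCC25. AXL and PROS1 ran against each other in SCC1 (r = -0.93) and SCC25 (r = -0.927) but not in SCC6 (r = 0.371).

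Genes that make or release the ligands and receptors were followed as lists. Of 4 genes of ligand maturation, 2 fell in SCC1, or 50% of the list against 44.5% of all genes called there, and none passed in SCC6 or SCC25, against 30.1% and 18.2% of all genes. FURIN, a protease of the secretory pathway, fell in SCC1 from 147.0 ± 21.6 to 103.5 ± 11.9 CPM (SD, n = 5; log2 fold change -0.49 ± 0.10, edgeR adjusted p = 0.002). VKORC1, which recycles vitamin K for the carboxylase, fell there by 0.23 on the log2 scale (-0.23 ± 0.08, adjusted p = 0.028). Of the 2 proteases that shed AXL and MERTK from the cell surface, ADAM10 rose in SCC1 (0.22 ± 0.05, adjusted p = 0.0019), so 50% were called against 44.5% of all genes, and neither passed in SCC6 or SCC25. The medians of both lists in SCC1, -0.12 and 0.20, stand beside a median of 0.02 over all genes tested.

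A list of 7 genes joined LGALS3, TUB, TULP1 and MFGE8, as other ligands and bridging proteins, with the integrin subunits ITGAV, ITGB3 and ITGB5. Of these genes, 6 were tested in each line, and 3 rose and 1 fell in SCC1. In SCC6 5 rose and 1 fell, and in SCC25 2 rose and 2 fell. The called shares were 66.7%, 100% and 66.7%, against 44.5%, 30.1% and 18.2% of all genes. ITGAV, the integrin subunit alpha V that takes part in the engulfment of apoptotic cells, rose in all 3 lines, by 0.57 ± 0.10 in SCC1 (adjusted p = 0.00064), 1.14 ± 0.11 in SCC6 (adjusted p = 3.9e-05) and 0.45 ± 0.10 in SCC25 (adjusted p = 0.0089). The list's median was 0.40 in SCC1, 1.06 in SCC6 and 0.00 in SCC25, against 0.02, 0.00 and 0.01 over all genes. Of 8 genes of phosphatidylserine exposure and retrieval, 3 of 8 tested rose in SCC1, 1 of 6 in SCC6 and none of 7 in SCC25. These shares of 37.5%, 16.7% and 0% were below the 44.5%, 30.1% and 18.2% of all genes. ANO6, the scramblase that exposes phosphatidylserine on the outer leaflet, rose in SCC1 (0.36 ± 0.06, adjusted p = 0.00022) and SCC6 (0.82 ± 0.10, adjusted p = 0.00015) and was at 0.06 ± 0.05 in SCC25 (adjusted p = 0.45).

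Downstream of the receptors, 10 of 22 tested signalling adaptors and kinases fell and 3 rose in SCC1, 7 of 22 rose and 1 fell in SCC6, and 1 of 23 fell in SCC25. The called shares of 59.1%, 36.4% and 4.35% stand beside 44.5%, 30.1% and 18.2% over all genes. In SCC1 the adaptor BCAR1 fell from 175.7 ± 44.2 to 78.9 ± 8.29 CPM (SD, n = 5; -1.14 ± 0.16, edgeR adjusted p = 0.00026). SOCS3, an inhibitor of cytokine signalling, fell there by 0.97 on the log2 scale (-0.97 ± 0.33, adjusted p = 0.038). Neither passed in SCC6 (0.39 and 0.14) or SCC25 (-0.42 and -0.60). The list's median was -0.20 in SCC1, 0.12 in SCC6 and -0.09 in SCC25, against 0.02, 0.00 and 0.01 over all genes.

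Of 5 receptors reported to pair with AXL, EGFR, the target of cetuximab, rose in SCC1 from 600.5 ± 23.3 to 889.8 ± 110.0 CPM (SD, n = 5; 0.58 ± 0.07, edgeR adjusted p = 3.4e-05). It did not pass in SCC6 (0.09 ± 0.09, adjusted p = 0.47) or SCC25 (0.09 ± 0.04, adjusted p = 0.16), and its change differed between the lines by the interaction test (adjusted p = 0.00026). ERBB3, an EGFR family member that signals through its partners, rose in SCC1 (0.89 ± 0.07, adjusted p = 7.7e-07) and SCC25 (0.49 ± 0.07, adjusted p = 0.00049) and fell in SCC6 (-0.44 ± 0.15, adjusted p = 0.043). Its direction was thus opposite to that of AXL in each line. ERBB2, its usual partner, rose in SCC1 (0.52 ± 0.07, adjusted p = 4.8e-05) and SCC6 (0.71 ± 0.22, adjusted p = 0.026) and was at 0.08 ± 0.10 in SCC25 (adjusted p = 0.62). Counted over the list, 3 of 4 tested rose in SCC1, 3 of 5 rose and 1 fell in SCC6, and 1 rose and 1 fell of 5 in SCC25, so 75%, 80% and 40% were called where 44.5%, 30.1% and 18.2% of all genes were.

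Of 12 other genes for proteins with the same vitamin K-dependent domain, 6 were tested in each line, and 2 rose in SCC1, 2 in SCC6 and 1 in SCC25. These shares of 33.3%, 33.3% and 16.7% are near or below those of all genes, 44.5%, 30.1% and 18.2%. PRRG4, a membrane protein of this class, rose in SCC1 from 37.1 ± 7.16 to 83.3 ± 17.5 CPM (SD, n = 5; 1.19 ± 0.17, edgeR adjusted p = 0.00019) and in SCC25 from 52.1 ± 15.5 to 95.0 ± 22.2 CPM (0.86 ± 0.22, adjusted p = 0.02). In SCC6 it was at 44.4 ± 7.70 and 49.8 ± 8.66 CPM (adjusted p = 0.61). Its rise thus passed in the same lines as that of PROS1.

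**Figure D3:**
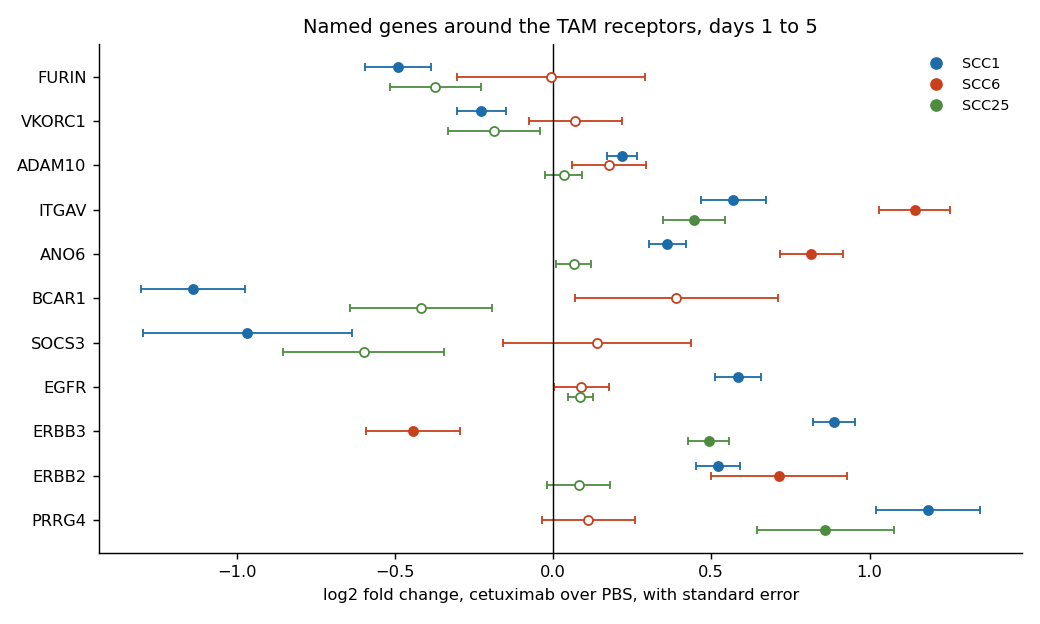
Log2 fold change of cetuximab over PBS on days 1 to 5, with its standard error, for the named genes around the TAM receptors in SCC1, SCC6 and SCC25 (colours), and filled symbols for an adjusted p under 0.05. ITGAV lies to the right of 0 in all 3 lines, while ERBB3 is at 0.89 in SCC1, 0.49 in SCC25 and -0.44 in SCC6.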

How the data were processed

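Bulk polyA RNA-seq libraries of SCC1, SCC6 and SCC25 were analysed, with groups, days and flow cells taken from the labels. The authors deposited estimated counts per gene symbol, inferred with Salmon (version 0.8.2 in the submitters' processing notes, which name hg19 and GRCh37) and exported with tximport. These values are not normalised between libraries, and the annotation is not given in the sources used here. Estimated counts divide reads shared by near-identical genes, which bears on TYRO3 and PROS1.

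Counts were rounded to whole numbers, filtered with filterByExpr and scaled by TMM, and CPM are on the TMM-scaled library size. Tests were edgeR 4.0.16 quasi-likelihood F tests (R 4.3.3), the study having used DESeq2, with Benjamini-Hochberg adjustment over all genes tested and a threshold of 0.05. A fold change is called past this threshold. Lines were compared with their PBS libraries of days 1 to 5, and levels between lines over PBS of days 0 to 5. Daily log2 ratios used a pseudocount of 0.1 CPM, or 1 as an alternative. Alternatives were DESeq2 1.42.0, total-count scaling, no filter, pseudogene counts added, PBS of day 0 added, flow cell as a covariate, the day as a replicate block, and leaving out each library in turn. Depth, 28508539 to 80727185 counts, limits MERTK in SCC6 most. The lowest chi-square per degree of freedom over 75 pairs of libraries of one group was 5.94.

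The day pairs PBS and cetuximab libraries, since the labels give it as a shared time point. Deviations from the group means correlated between same-day libraries with r = 0.37, 0.37, 0.14, 0.18 and 0.11 on days 1 to 5 in SCC1, 0.21, 0.55, 0.53, 0.54 and 0.56 in SCC25, and 0.6, -0.2 and 0.01 on days 3 to 5 in SCC6. In SCC6, cetuximab of days 4 and 5 followed PBS of day 1 more closely (0.7 and 0.36), so the data do not bear out the pairing by day in that line. In SCC1, cetuximab of days 3 and 4 followed PBS of day 5 more closely (0.25 and 0.39), and that of day 5 followed PBS of day 4 (0.15). In SCC25, cetuximab of day 1 followed PBS of day 2 more closely (0.63). The pairing was thus borne out only in part in SCC1 and SCC25. The SCC6 libraries 2a and 2b correlated with PBS of day 2 (0.54 and 0.58) and not with day 1 (-0.46 and -0.39), and the blocked fits took one or the other as day 1. PBS of day 2 shared a flow cell with 2a and 2b and PBS of day 1 did not, so day and flow cell cannot be told apart in these correlations.

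The 5 genes and all lists were chosen with earlier results of these data known. Named from a list were EGFR, the genes called one way in all 3 lines, and otherwise up to 2 called genes of the largest change whose mean log2 CPM reached 3. Promoter windows and gene positions came from GENCODE on GRCh37 and its genome sequence.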

Additional observations from a re-analysis of the deposited data

Results flagged for a closer look

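The change of AXL under cetuximab differed between the lines by the edgeR interaction test (adjusted p = 6.1e-08). Its log2 fold change was higher in SCC6 than in SCC1 by 1.79 and than in SCC25 by 1.22, and it was higher in SCC25 than in SCC1 by 0.57. The call of that last difference was lost in 4 of 8 alternatives and without any 1 of 18 of the 30 libraries. In SCC1 and SCC25 all 5 cetuximab libraries were below all PBS libraries of days 1 to 5, and in SCC6 4 of 5 were above them. The share of all genes with such separation was not counted. No level of the 5 genes had an outlying library in the 30 groups of 5 libraries tested.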

How the results depend on the processing

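Calls of AXL in SCC1 and SCC6, TYRO3 in SCC1 and MERTK in SCC25 held under every alternative run for the 5-day comparisons, and the difference of the AXL change between lines did so too. With the flow cell as a covariate, called genes over days 1 to 5 numbered 4058 in SCC1 and 1358 in SCC25, and 2951 for the difference between lines. The values then were -0.36 for MERTK and 0.84 for PROS1 in SCC1, -0.41 for AXL, 0.33 for PROS1 and 0.12 for TYRO3 (its sign turned) in SCC25, and -0.21 for AXL, 0.18 for TYRO3 and 0.47 for GAS6 over the 3 lines. In the periods it gave 207 calls (1 of the 5 genes) in SCC1 and 1 of the 5 genes in SCC6 on days 1 to 3, 3445 calls in SCC25 on days 1 to 3, and 2581 calls (1 of the 5) in SCC25 on days 4 and 5; it could not be fitted for SCC6 on days 4 and 5 or for the period difference there. MERTK in SCC1 lost its call with total-count scaling (-0.30), no filter (-0.36) and PBS of day 0 added (-0.28), GAS6 in SCC1 with no filter (0.41) and the day block (0.40), and AXL over the 3 lines with total counts (-0.37), no filter (-0.40) and either day block (-0.42). The day block also gave 910 calls in SCC25 on days 4 and 5, where 1 of the 5 genes passed, and changed no call beyond those given here and the SCC25 against SCC1 difference of AXL. There DESeq2 gave 1175 calls (2 of the 5) and no filter passed 1 of the 5, and no filter passed 2 of the 5 in SCC6 on days 1 to 3. Without these alternatives, 2.77% of all genes passed in SCC25 on days 4 and 5 and 20.3% in SCC6 on days 1 to 3. The shares of all genes under the alternatives are not given here, so these counts are no result about the 5 genes. Leaving out single libraries gave -0.44 to -0.30 for MERTK and 0.30 to 0.50 for GAS6 in SCC1, 0.17 to 0.35 for GAS6 in SCC25, and -0.47 to -0.35 for AXL, 0.11 to 0.18 for TYRO3 and 0.24 to 0.43 for GAS6 over the 3 lines. It gave 2196 (without cetuximab of day 4) to 4002 calls in SCC25, 3503 (without cetuximab of day 5) to 6203 in SCC1 on days 4 and 5, 2277 (without cetuximab of day 3) to 4960 (0 to 1 of the 5) in SCC6 on days 1 to 3, and 4114 (without cetuximab of day 4) to 9192 (1 to 3 of the 5) in SCC6 on days 4 and 5. In SCC25 it gave 538 (without PBS of day 2) to 3485 (without cetuximab of day 3; 1 to 3 of the 5) on days 1 to 3 and 36 (without cetuximab of day 5) to 3287 (without cetuximab of day 3; 0 to 2 of the 5) on days 4 and 5. The cause of these shifts was not tested.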
